A study of Mus musculus with 9 samples.

Results

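The Egr transcription factors Egr1, Egr2 and Egr3 and their corepressors Nab1 and Nab2 were followed across RNA-sequencing libraries of primary mouse CD4+ T cells. The 5 genes were taken by symbol, and all 5 were among the 16500 genes of the deposited table of normalized values. There were 9 libraries in 3 groups of 3, from cells of C57BL/6 mice cultured in RPMI-1640 with serum and transduced with a retroviral vector: NFAT2_CARIT, NFAT2_CA or the CTRL vector (Control). NFAT2 is the calcium-regulated transcription factor made from Nfatc1. The CA form is constitutively active, and the RIT change weakens its cooperation with AP-1 on DNA. All groups, Control included, went through transduction. The labels give neither the promoter of the vectors nor the share of transduced cells, and they do not say whether replicates came from separate animals or cultures, so p-values measure the spread between these libraries only.

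Egr proteins are zinc finger factors that bind GC-rich sites and are made quickly after a T cell receptor signal, through the MAP kinase pathway and serum response factor and, for Egr2 and Egr3, also through NFAT. In T cells Egr2 and Egr3 are known for restraining activation and for their part in anergy, the unresponsive state that follows calcium signalling without costimulation. Nab1 and Nab2 have no DNA-binding domain of their own. They dock on the inhibitory region of Egr1, Egr2 and Egr3 and recruit the nucleosome remodelling and deacetylase complex (NuRD), and Nab2 is itself induced by Egr factors in several cell types.

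The corepressor gene Nab1 had the largest rise of the 5 members. It averaged 102 ± 2.34 CPM (read counts scaled to a common library total) with NFAT2_CARIT, 181 ± 3.07 CPM with NFAT2_CA and 81.6 ± 1.13 CPM in Control (SD, n = 3 libraries each, as for all means below). Egr3 moved the other way and was lowest with NFAT2_CARIT, at 0.323 ± 0.144 CPM, with 0.721 ± 0.150 CPM for NFAT2_CA and 1.32 ± 0.144 CPM in Control. These Egr3 values rest on few reads, and the vectors did not differ from each other by the test. Nab2 rose slightly with both vectors. Egr1 and Egr2 differed between no groups by the test, with wide intervals.

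**Figure D1:**
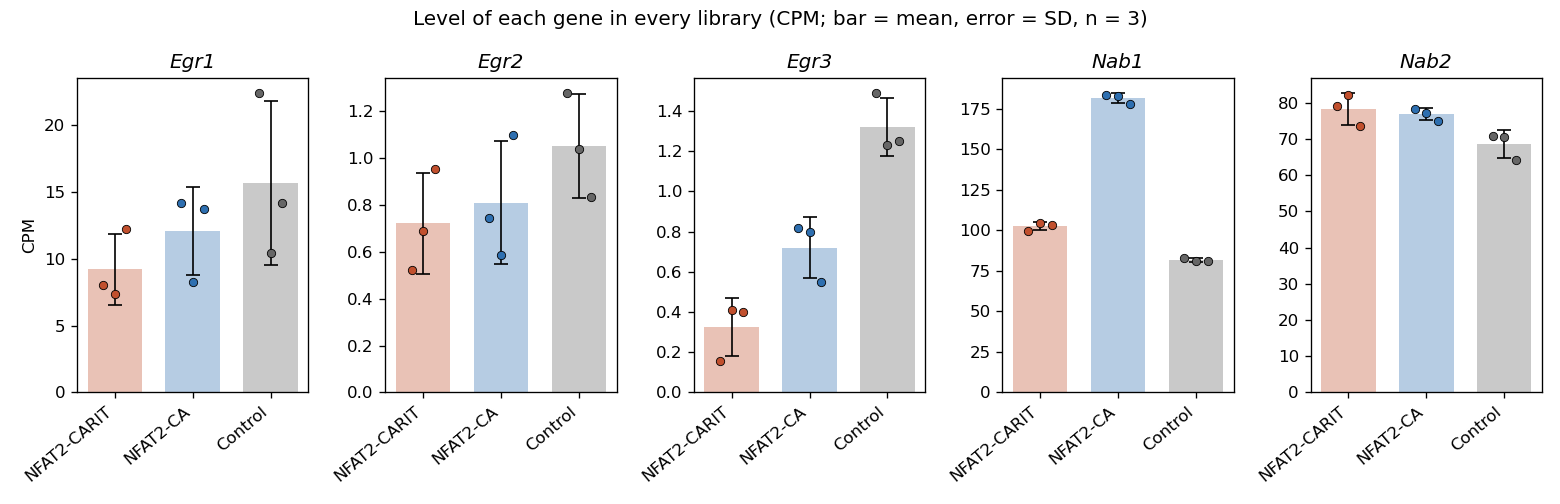
Level of each gene in CPM (vertical axes, which differ between panels and start at 0) in the 3 groups; points are libraries, bars means and error bars SD (n = 3). Nab1 libraries form 3 separate levels with NFAT2_CA highest, and the Egr1 and Egr2 libraries of the groups overlap. The Egr3 libraries of the groups do not overlap, with NFAT2_CARIT lowest, but the vectors did not differ from each other by the test.

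The depth, worked out from the steps between low values, was 19948000 to 38189000 reads per library. Nfatc1, whose product the vectors carry, stood at 246 ± 6.48 CPM with NFAT2_CARIT, 358 ± 32.7 CPM with NFAT2_CA and 213 ± 22.1 CPM in Control. Cd4 was at 1504 to 1698 CPM in every library, and 7 of 7 markers of CD4 T cells together made 5392 to 5527 CPM with NFAT2_CARIT, 5831 to 6186 CPM with NFAT2_CA and 4770 to 4790 CPM in Control. Fold changes are on log2(CPM + 1), given as estimate ± SE with the Benjamini-Hochberg adjusted p from limma over the 13090 genes that reached 1 CPM in at least 3 libraries, and a gene was called at an adjusted p under 0.05. Changes were widespread: of all genes tested, 70.3% were called between NFAT2_CARIT and Control, 65.5% between NFAT2_CA and Control and 28.6% between NFAT2_CARIT and NFAT2_CA. Against Control, 3 of 5 members were called with NFAT2_CARIT, where Nab1 and Nab2 rose and Egr3 fell, and 29.2% of all genes tested rose and 41.1% fell. The same 3 of 5 were called with NFAT2_CA, where 29.0% of all genes rose and 36.5% fell. Egr3 passed the 1 CPM limit through its Control libraries alone, the group where it was highest. Between the vectors 1 of 5 was called, Nab1, which was lower with NFAT2_CARIT, where 11.9% of all genes were higher and 16.7% lower. The members' shares were close to those of all genes. In the authors' deposited table Nab1 alone, 1 of 5, passed a step-up FDR of 0.05 in each comparison, where that table calls 25.6%, 21.9% and 2.84% of its genes in the same order.

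The members lay on different scales. Divided by exonic length, the levels in Control were 23.3 ± 1.30 CPM per kb for Nab2, 19.9 ± 0.275 CPM per kb for Nab1, 3.49 ± 1.36 CPM per kb for Egr1, 0.309 ± 0.0650 CPM per kb for Egr2 and 0.30 ± 0.0326 CPM per kb for Egr3. With NFAT2_CA the first places changed, with 44.2 ± 0.749 CPM per kb for Nab1 and 26.1 ± 0.542 CPM per kb for Nab2. With NFAT2_CARIT Nab2 stood at 26.6 ± 1.49 CPM per kb and Nab1 at 24.3 to 25.4 CPM per kb, and their libraries overlapped. Egr2 and Egr3 did not differ beyond their spread in Control, while with NFAT2_CARIT Egr3, at 0.0734 ± 0.0327 CPM per kb, lay below Egr2, at 0.212 ± 0.0636 CPM per kb, without overlap. In all 3 groups the corepressor genes had the highest levels of the 5 per length, and Egr2 and Egr3 the lowest.

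Egr1, the immediate early factor that T cell receptor and growth factor signals induce within minutes, was the most abundant of the Egr genes. It stood at 8.01, 7.33 and 12.2 CPM with NFAT2_CARIT, at 14.2, 8.25 and 13.7 CPM with NFAT2_CA and at 22.4, 10.4 and 14.2 CPM in Control (replicates 1, 2 and 3). The groups overlapped in every comparison, and Control replicate 1 was the highest library. The log2 fold change was -0.67 ± 0.32 for NFAT2_CARIT against Control (limma adjusted p = 0.093, 95% interval -1.42 to 0.07), and without Control replicate 2 it was -0.92 (limma adjusted p = 0.031), which passes. It was -0.32 ± 0.32 for NFAT2_CA against Control (limma adjusted p = 0.40, 95% interval -1.07 to 0.42) and -0.35 ± 0.32 for NFAT2_CARIT against NFAT2_CA (limma adjusted p = 0.47, 95% interval -1.10 to 0.39).

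The spread of Egr1 within groups was larger than counting error. Its coefficient of variation was 28.9% with NFAT2_CARIT, 27.3% with NFAT2_CA and 39.1% in Control, where the number of reads alone would give 4.36% to 7.12% per library. The AP-1 gene Jun, another immediate early gene and one of the 3 whose pattern was most like that of Egr1, varied between the same libraries. Jun was at 61.8, 61.2 and 77.7 CPM with NFAT2_CARIT, at 85.3, 65.0 and 80.9 CPM with NFAT2_CA and at 184, 61.7 and 117 CPM in Control. In Control both genes were highest in replicate 1 and lowest in replicate 2. Because Jun was picked for its likeness to Egr1 over these same libraries, a shared order is partly built in. What set this order was not tested.

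Egr2, a factor of anergy and of peripheral tolerance, was close to the lowest levels that could be tested. It stood at 0.524, 0.686 and 0.952 CPM with NFAT2_CARIT, at 0.744, 0.587 and 1.10 CPM with NFAT2_CA and at 1.27, 1.04 and 0.833 CPM in Control. The groups overlapped, and each value rests on 14 to 33 reads, which came out whole within 0.1 read in 9 of 9 libraries. The log2 fold change was -0.25 ± 0.17 for NFAT2_CARIT against Control (limma adjusted p = 0.20, 95% interval -0.62 to 0.11), -0.18 ± 0.17 for NFAT2_CA against Control (limma adjusted p = 0.36, 95% interval -0.55 to 0.18) and -0.07 ± 0.17 between the vectors (limma adjusted p = 0.81, 95% interval -0.44 to 0.30). No difference in Egr2 was detected, and the intervals leave room for changes of either sign.

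Of the Egr genes, Egr2 has promoter windows in the RefSeq table used (build GRCm38.p6, 250 bases before to 50 after a start site), 5 of them, 1 for each listed start site. The window chr10:67537619-67537918 (plus strand) is shown because it holds a CArG box, the binding motif of serum response factor, given in capitals.
Egr2: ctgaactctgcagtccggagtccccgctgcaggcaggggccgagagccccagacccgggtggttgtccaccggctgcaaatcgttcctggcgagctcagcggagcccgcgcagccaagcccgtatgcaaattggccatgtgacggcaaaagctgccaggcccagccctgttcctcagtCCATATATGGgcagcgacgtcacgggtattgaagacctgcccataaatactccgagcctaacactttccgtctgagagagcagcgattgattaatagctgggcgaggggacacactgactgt
A CArG box was found in 4 of the 5 Egr2 windows, but 3 of these overlap and hold the same box, so there are 2 distinct CArG boxes. Of all 32851 windows in the table, 1.63% hold one. The NFAT core TTTCC or its reverse complement was found in the same 4 windows at 4 distinct places, of which the 3 overlapping windows share 1, and 61.3% of all windows hold a core. In the remaining window a core overlapped the CArG box. The AP-1 motif TGANTCA was in none of the 5 (7.81% of all windows). All 5 start sites lie inside the GENCODE M21 span of Egr2, which begins at 67535475. These are matches of letters, not measured binding.

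Egr3, which acts beside Egr2 in anergy and in the induction of Fas ligand, fell with both vectors. It stood at 0.157, 0.412 and 0.401 CPM with NFAT2_CARIT, at 0.818, 0.796 and 0.548 CPM with NFAT2_CA and at 1.49, 1.23 and 1.25 CPM in Control. The 3 groups did not overlap: every NFAT2_CARIT library was below every NFAT2_CA library, and all of these were below Control. Such separation was common, at 73.1% of all genes tested for NFAT2_CARIT against Control, 68.3% for NFAT2_CA against Control and 44.0% between the vectors.

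The mean CPM of Egr3 with NFAT2_CARIT was 0.245 times that of Control, a log2 fold change of -0.82 ± 0.16 (limma adjusted p = 0.00030). With NFAT2_CA the mean was 0.545 times that of Control, a log2 fold change of -0.43 ± 0.16 (limma adjusted p = 0.027). The second call was lost without NFAT2_CA replicate 3, at -0.36 (limma adjusted p = 0.079), and, with every listed gene tested, without Control replicate 1, at -0.38 (limma adjusted p = 0.066). Between the vectors the ratio of means was 0.449 and the log2 fold change -0.38 ± 0.16, which did not pass (limma adjusted p = 0.093, 95% interval -0.73 to -0.04), though with every listed gene tested and without NFAT2_CA replicate 3 it was -0.46 (limma adjusted p = 0.037). The added 1 CPM compresses these values: with 0.25 CPM they were -1.49, -0.70 and -0.78. The authors' deposited table gives log2 ratios of -2.04, -0.87 and -1.16 in the same order and calls none of them, with FDR values of 0.307, 0.782 and 1.00.

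Few reads stand behind Egr3. There were 6, 15 and 8 reads in the NFAT2_CARIT libraries, 22, 19 and 13 with NFAT2_CA and 35, 39 and 30 in Control, whole within 0.1 read in all 9. Exact 95% Poisson intervals, which cover counting error only, reached up to 0.790 CPM with NFAT2_CARIT and 1.24 CPM with NFAT2_CA, and down to 0.844 CPM in Control. The NFAT2_CARIT and Control intervals therefore did not meet, and those of NFAT2_CA and Control did. Those of NFAT2_CARIT and NFAT2_CA met as well, since NFAT2_CA reached down to 0.292 CPM. Egr3 entered the test through Control alone, the group with 3 libraries of at least 1 CPM. With every listed gene tested the estimates were the same, at adjusted p = 0.00013 (NFAT2_CARIT) and 0.017 (NFAT2_CA) by limma.

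**Figure D2:**
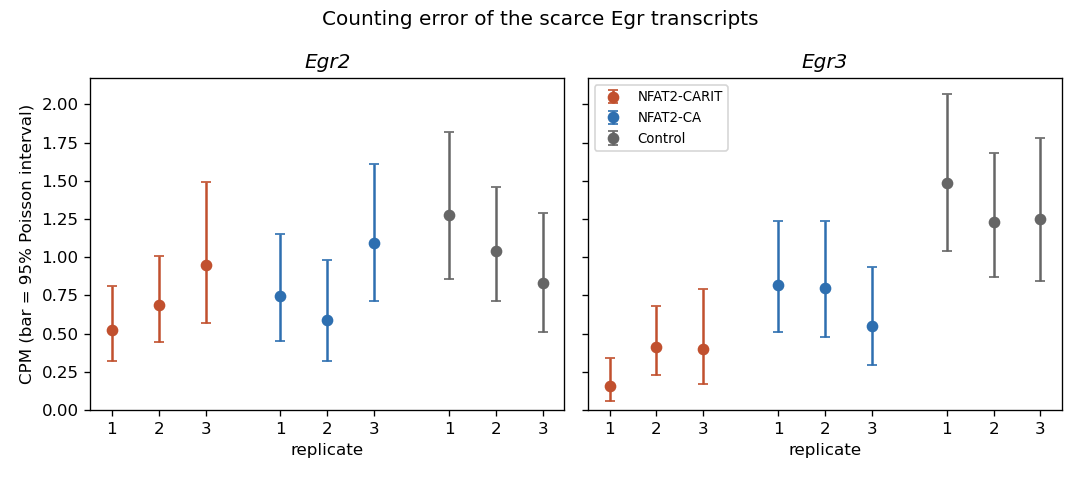
Egr2 and Egr3 in CPM (vertical axis, starting at 0) in each library (horizontal axis, replicate number), with bars for the exact 95% Poisson interval of the reads. The Egr3 intervals of NFAT2_CARIT end at or below 0.790 CPM and those of Control start at or above 0.844 CPM, while for Egr2 the intervals of the groups overlap. Egr3 intervals of NFAT2_CA overlap with some of NFAT2_CARIT and some of Control.

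Markers of other cells that the cultures could hold also differed between the groups. Of 7 myeloid and dendritic cell markers 3 were among the listed genes, and their summed level was 2.30 to 3.38 CPM with NFAT2_CARIT, 1.52 to 1.93 CPM with NFAT2_CA and 6.83 to 9.39 CPM in Control. Itgam made up most of it in Control, at 6.83 to 9.29 CPM, and stood at 0.916 to 1.70 CPM with NFAT2_CARIT and 0.632 to 0.796 CPM with NFAT2_CA. Of 5 B cell markers 2 were listed, Cd79a and Cd79b, at a sum of 0.733 to 1.60 CPM with NFAT2_CARIT, 0.628 to 1.23 CPM with NFAT2_CA and 2.50 to 3.46 CPM in Control. For NK cells 2 of 4 were listed, Klrk1 and Eomes, which T cells also express, at 1.70 to 2.25 CPM, 2.51 to 2.91 CPM and 3.82 to 4.37 CPM in the same order. Most of this sum was Eomes. Klrk1 was at 0.105 to 0.601 CPM with NFAT2_CARIT, which overlapped with 0.340 to 0.708 CPM in Control. With NFAT2_CA Klrk1 was at 0.126 to 0.260 CPM. Control was highest for these 3 sums, as it was for Egr3. The other myeloid markers were ordered otherwise. Cd14 stood at 0.351 to 0.707 CPM with NFAT2_CARIT, 0.781 to 1.05 CPM with NFAT2_CA and at most 0.085 CPM in Control, and Itgax at 0.681 to 1.35 CPM with NFAT2_CARIT, at most 0.112 CPM with NFAT2_CA and at most 0.094 CPM in Control. Cd8a and Cd8b1 summed to 22.6 to 24.0 CPM with NFAT2_CARIT, 28.4 to 30.8 CPM with NFAT2_CA and 12.5 to 13.7 CPM in Control, mostly Cd8b1. Cd8a averaged 1.69 ± 0.331 CPM with NFAT2_CARIT, 0.485 ± 0.132 CPM with NFAT2_CA and 0.262 ± 0.207 CPM in Control. Between the vectors these genes went opposite ways. For NFAT2_CARIT against NFAT2_CA the log2 fold change of Cd8a was 0.85 ± 0.18 (limma adjusted p = 0.0017). That of Cd8b1 was -0.42 ± 0.08 (limma adjusted p = 0.00065). Cd14 was listed at 0 in 2 Control libraries and Itgax in 1 Control and 1 NFAT2_CA library, and Ms4a1, Pax5, Csf1r, Lyz2, Adgre1, Flt3, Ncr1 and Klrb1c were not analysed here. The part of such cells in the Egr3 values was not tested. In bulk RNA, fewer cells that express a gene and less of its RNA per cell cannot be told apart.

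Nab1, the corepressor that holds back Egr1, Egr2 and Egr3 when it docks on them, was higher with both vectors and highest with NFAT2_CA. It stood at 99.8, 104 and 103 CPM with NFAT2_CARIT, at 183, 183 and 178 CPM with NFAT2_CA and at 82.9, 80.9 and 81.0 CPM in Control. The 3 groups did not overlap, and within each of them the libraries lay within a coefficient of variation of 1.38% to 2.28%. Over all genes tested, 73.1% did not overlap for NFAT2_CARIT against Control, 68.3% for NFAT2_CA against Control and 44.0% between the vectors. The gene lies on chromosome 1, 52457294 to 52500679, minus strand (GRCm38).

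With NFAT2_CA the mean Nab1 level was 2.22 times that of Control, a log2 fold change of 1.14 ± 0.05 (limma adjusted p = 1.2e-11), which ranked 885 among the 13090 genes tested from the largest rise. With NFAT2_CARIT the mean was 1.26 times that of Control, a log2 fold change of 0.32 ± 0.05 (limma adjusted p = 3.7e-05). NFAT2_CARIT libraries held 0.565 times the Nab1 of NFAT2_CA libraries, a log2 fold change of -0.82 ± 0.05 (limma adjusted p = 1.2e-08), which ranked 248 of the genes tested from the largest fall. The authors' deposited table gives 1.15 for NFAT2_CA against Control (FDR = 4.5e-19), 0.33 for NFAT2_CARIT against Control (FDR = 0.034) and -0.82 between the vectors (FDR = 7.4e-09). Nfatc1 was ordered in the same way as Nab1, with log2 fold changes of 0.74 ± 0.08, 0.21 ± 0.08 and -0.53 ± 0.08 in those comparisons. No source used here says whether reads of the vector insert count towards Nfatc1, and its values may mix the cells' own RNA with that of the vector. Whether the amount of vector differs between the groups cannot be read from these values, and its part in the Nab1 values was not tested.

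**Figure D3:**
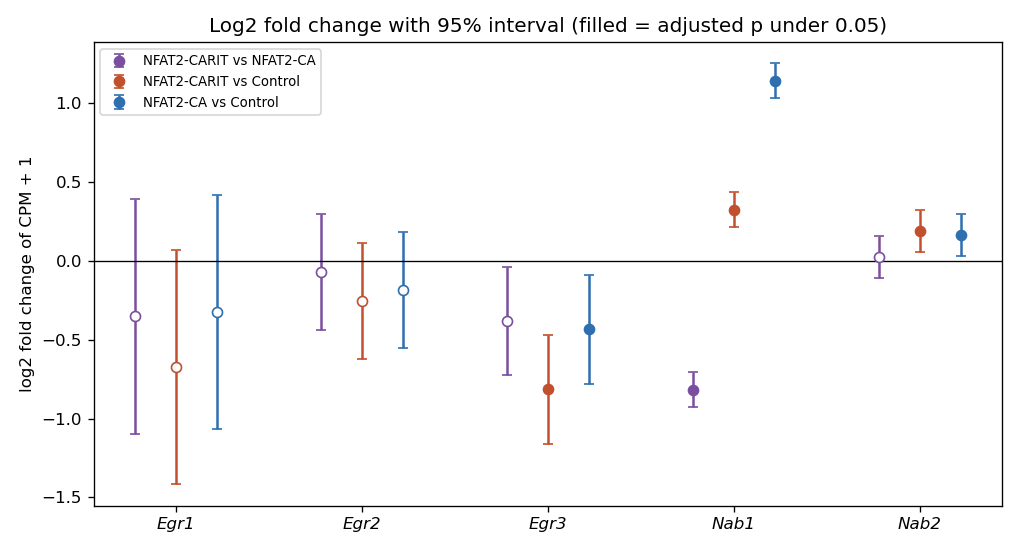
Log2 fold change of CPM + 1 (vertical axis) of each gene (horizontal axis) in the 3 comparisons, with 95% intervals from limma; filled points have an adjusted p under 0.05. For NFAT2_CARIT against NFAT2_CA, NFAT2_CARIT against Control and NFAT2_CA against Control, Nab1 stands at -0.82, 0.32 and 1.14 and Egr3 at -0.38, -0.82 and -0.43, and the intervals of Egr1 and Egr2 all cross 0.

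The promoter windows of the 2 corepressor genes in the RefSeq table (GRCm38.p6) are shown because the genes share their role and differ in response. They are chr1:52500399-52500698 for Nab1 and chr10:127666654-127666953 for Nab2, each read 5′ to 3′ on the minus strand. Capitals mark the EGR motifs GCGTGGGCG and GCGGGGGCG on either strand.
Nab1: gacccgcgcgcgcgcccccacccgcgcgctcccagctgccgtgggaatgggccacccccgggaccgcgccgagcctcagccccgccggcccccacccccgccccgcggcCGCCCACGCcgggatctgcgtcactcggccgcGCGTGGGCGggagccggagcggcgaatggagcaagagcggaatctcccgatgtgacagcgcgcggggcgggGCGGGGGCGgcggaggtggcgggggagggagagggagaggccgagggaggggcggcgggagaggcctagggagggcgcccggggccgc
Nab2: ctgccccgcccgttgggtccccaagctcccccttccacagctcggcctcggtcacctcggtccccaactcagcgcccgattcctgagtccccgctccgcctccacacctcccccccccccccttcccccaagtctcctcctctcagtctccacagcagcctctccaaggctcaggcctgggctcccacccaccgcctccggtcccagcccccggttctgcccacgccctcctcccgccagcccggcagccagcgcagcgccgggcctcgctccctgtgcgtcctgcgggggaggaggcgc
The Nab1 window held 3 EGR motifs, counted by first base from the start site: GCGTGGGCG at -141 on the opposite strand and at -109 on the strand shown, and GCGGGGGCG at -38. They did not overlap each other. Of all 32851 windows, 0.612% hold the first motif, 2.91% the second and 3.47% either. The Nab1 window is 81.7% G and C and the Nab2 window 74.0%, and in the Nab2 window neither EGR motif was found. The NFAT core, the AP-1 motif and the CArG box were not in either window. The RefSeq start sites used, 52500448 for Nab1 and 127666703 for Nab2, lie inside the GENCODE M21 spans of these genes. On the minus strand those spans begin at 52500679 and 127668568. By the GENCODE span the 3 Nab1 motifs lie within the gene. A match is a description of the letters, and no binding was measured here.

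**Figure D4:**
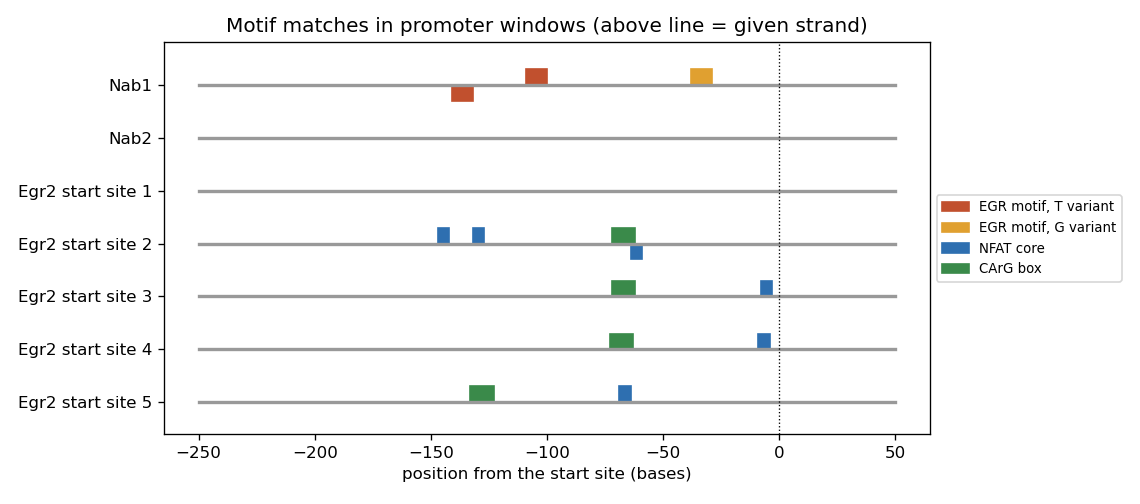
Motif matches in the promoter windows of Nab1, Nab2 and the 5 start sites of Egr2, by position from the start site in bases (horizontal axis). Boxes above a line are on the strand given and those below on the other. A CArG box, whose motif is met on both strands at once, is drawn above. Nab1 holds the 3 EGR matches, 4 of the 5 Egr2 windows hold a CArG box, which for the last 3, overlapping windows is the same box, and the Nab2 window holds no match.

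Nab2, the paralogue that is itself induced by Egr factors and limits their activity, changed little. It stood at 79.0, 82.1 and 73.5 CPM with NFAT2_CARIT, at 78.1, 77.2 and 75.0 CPM with NFAT2_CA and at 70.9, 70.4 and 64.1 CPM in Control. Both vector groups lay above Control without overlap, and they overlapped each other. Separation from Control, in either direction, was common: 73.1% of all genes tested with NFAT2_CARIT and 68.3% with NFAT2_CA. The log2 fold change was 0.19 ± 0.06 for NFAT2_CARIT against Control (limma adjusted p = 0.013) and 0.16 ± 0.06 for NFAT2_CA against Control (limma adjusted p = 0.029). Between the vectors it was 0.02 ± 0.06 (limma adjusted p = 0.82, 95% interval -0.11 to 0.16). The rises depend on single libraries: for NFAT2_CARIT the adjusted p was 0.074 without NFAT2_CARIT replicate 2, and for NFAT2_CA it was 0.095, 0.086 and 0.068 without Control replicate 3, NFAT2_CA replicate 1 and NFAT2_CA replicate 2, all by limma. The authors' deposited table does not call them, with log2 ratios of 0.19 (FDR = 0.456) and 0.17 (FDR = 0.586).

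Nab2 (chromosome 10, 127660918 to 127668568, minus strand, GRCm38) shares bases with genes on the other strand, and whether reads were counted by strand is not given in the sources used here. Its exons share 151 bases with those of Nemp1, a nuclear envelope protein gene, and 40 bases with those of Stat6, the factor of interleukin-4 signalling. Nemp1 was at 79.5 ± 4.04 CPM with NFAT2_CARIT, 70.6 ± 3.83 CPM with NFAT2_CA and 36.2 ± 4.17 CPM in Control, and Stat6 at 202 ± 4.72, 225 ± 0.565 and 271 ± 8.83 CPM in the same order. The antisense gene Gm16229 shares 1050 exonic bases with Nab2 but averaged 0.145, 0.286 and 0.263 CPM. The part of Nemp1 and Stat6 reads in the Nab2 values was not tested. GENCODE M21 shows no other gene over Egr1 (chromosome 18, 34859823 to 34864984), Egr2 (chromosome 10, 67535475 to 67542188), Egr3 (chromosome 14, 70077203 to 70082614) or Nab1.

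For each member the 3 genes with the most similar pattern were found by Pearson's r of log2(CPM + 1) over the 9 libraries, among the 9345 genes whose mean reached 5 CPM. The 9 points share 3 groups and their libraries, and r is a description. Nab1 was closest to Prdm4 (r = 0.999), Ankrd46 (r = 0.998) and Cd82 (r = 0.995). Prdm4 stood at 60.1 ± 1.20 CPM with NFAT2_CARIT, 119 ± 3.63 CPM with NFAT2_CA and 44.5 ± 1.22 CPM in Control. Egr3 was closest to Samhd1 (r = 0.985), which encodes a deoxynucleotide-degrading enzyme, Zfp141 (r = 0.981) and Efl1 (r = 0.981). Samhd1 stood at 1132 ± 88.5 CPM with NFAT2_CARIT, 1473 ± 78.7 CPM with NFAT2_CA and 1907 ± 32.8 CPM in Control. Egr1 was closest to Fundc1 (r = 0.924), Jun (r = 0.912) and Pigu (r = 0.875), Egr2 to Xrn1 (r = 0.977), Mllt10 (r = 0.949) and Rbm6 (r = 0.947), and Nab2 to Mtmr3 (r = 0.945), Eif3c (r = 0.944) and Zfp341 (r = 0.944).

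The genes that feed Egr transcription moved in both directions. Over all genes tested, 29.2% rose and 41.1% fell with NFAT2_CARIT, 29.0% rose and 36.5% fell with NFAT2_CA, and, for this and the following lists, 11.9% were higher and 16.7% lower between the vectors. Of 17 listed, among them Nfatc1, 5 rose, 10 fell and 2 did not pass with NFAT2_CARIT, with a median log2 fold change of -0.19 against -0.09 over all genes tested. With NFAT2_CA 7 rose, 8 fell and 2 did not pass, with a median of -0.04 against -0.06. Nfatc2, the main NFAT factor of resting T cells, had -1.43 with NFAT2_CARIT and -1.23 with NFAT2_CA. Srf, which binds the CArG box, had -0.58 and -0.71 and its coactivator Mrtfa -0.56 and -0.74, in that order. Between the vectors 2 were higher, 3 lower and 12 did not pass, with Elk3, a partner of serum response factor, at -0.85 ± 0.07 (limma adjusted p = 3.1e-07). Elk3 stood at 37.5 ± 2.66 CPM with NFAT2_CARIT and 68.6 ± 5.91 CPM with NFAT2_CA. Srf and Mrtfa did not pass between the vectors.

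The immediate early genes, which are induced beside Egr1, split as well. With NFAT2_CARIT 12 of 25 tested rose, 8 fell and 5 did not pass, where 29.2% of all genes rose and 41.1% fell (median 0.08, against -0.09 over all genes). With NFAT2_CA 11 rose, 10 fell and 4 did not pass, where 29.0% of all genes rose and 36.5% fell (median -0.14, against -0.06). Of these, the nuclear receptor gene Nr4a2 had the largest rises, at 3.89 with NFAT2_CARIT and 5.37 with NFAT2_CA. Klf10, a zinc finger factor induced by transforming growth factor beta, fell with both, at 9.76 ± 0.644 CPM with NFAT2_CARIT and 9.36 ± 2.02 CPM with NFAT2_CA against 60.7 ± 3.50 CPM in Control. Jun did not pass, with log2 fold changes of -0.72 ± 0.38 and -0.52 ± 0.38. Between the vectors 7 were higher and 8 lower, among them Nr4a2 at -1.48 ± 0.06, Nr4a1 at 1.03 ± 0.09, Fosb at -0.89 ± 0.18 and Ier3 at -0.72 ± 0.09.

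Of the genes linked to Egr2 and Egr3 in mouse T cell anergy, more rose than fell, while Egr3 fell. Of 10 tested, 6 rose and 4 fell with NFAT2_CARIT, where 29.2% of all genes rose and 41.1% fell (median 0.70, against -0.09 over all genes). With NFAT2_CA 6 rose, 3 fell and 1 did not pass, where 29.0% of all genes rose and 36.5% fell (median 0.59, against -0.06). The surface receptor genes Lag3 and Tnfrsf9 rose, at 4.27 and 2.75 with NFAT2_CARIT and 4.14 and 2.83 with NFAT2_CA. Nrn1, which encodes neuritin, was at 268 ± 6.27 CPM with NFAT2_CARIT, 214 ± 5.44 CPM with NFAT2_CA and 35.3 ± 0.905 CPM in Control, and the semaphorin gene Sema7a at 24.1 ± 1.41, 25.9 ± 0.878 and 7.71 ± 0.915 CPM in the same order. Dgka, the diacylglycerol kinase of anergic cells, fell to 816 ± 41.6 CPM with NFAT2_CARIT and 739 ± 23.6 CPM with NFAT2_CA, against 1438 ± 5.43 CPM in Control. Crtam, a scarce cell adhesion receptor gene, fell by 1.03 ± 0.16 with NFAT2_CARIT and by 0.56 ± 0.16 with NFAT2_CA on the log2 scale. Between the vectors 2 of the 10 were higher, Nrn1 at 0.33 ± 0.05 and the ubiquitin ligase gene Cblb at 0.18 ± 0.06, and Crtam was lower at -0.48 ± 0.16.

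Of 13 other genes linked to Egr factors in lymphocytes, 8 rose, 3 fell and 2 did not pass with NFAT2_CARIT, where 29.2% of all genes rose and 41.1% fell (median 0.33, against -0.09 over all genes). With NFAT2_CA 9 rose, 2 fell and 2 did not pass, where 29.0% of all genes rose and 36.5% fell (median 0.49, against -0.06). The cytokine gene Il10 had 2.20 and 3.62, the death ligand gene Fasl 1.28 and 1.30, and Id2, an inhibitor of E proteins, -1.14 and -0.96, in that order. Bcl6, the follicular helper factor that Egr2 is known to induce, was at 119 ± 1.75 CPM with NFAT2_CARIT, 66.0 ± 1.44 CPM with NFAT2_CA and 36.3 ± 1.80 CPM in Control. Between the vectors 2 were higher and 6 lower, with Il10 at -1.43 ± 0.11, Bcl6 at 0.84 ± 0.06, the cytokine signalling inhibitor Socs1 at -0.63 ± 0.09 and Tgfb3 at -0.62 ± 0.07.

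Of the genes for the complex that Nab proteins recruit, more fell than rose, as over all genes tested. Of 13 NuRD subunit genes, 8 fell, 3 rose and 2 did not pass with NFAT2_CARIT, where 41.1% of all genes fell and 29.2% rose (median -0.26, against -0.09 over all genes). With NFAT2_CA 7 fell, 1 rose and 5 did not pass, where 36.5% of all genes fell and 29.0% rose (median -0.14, against -0.06). Chd3, a remodelling ATPase, was at 545 ± 35.6 CPM with NFAT2_CARIT, 574 ± 19.9 CPM with NFAT2_CA and 1091 ± 89.2 CPM in Control, and Mbd2, which binds methylated DNA, had -0.81 ± 0.05 with NFAT2_CARIT and -0.83 ± 0.05 with NFAT2_CA. Hdac1 had -0.39 and -0.43, while Gatad2a had 0.42 with NFAT2_CARIT. Between the vectors 2 were higher, 2 lower and 9 did not pass, with Mbd3 at -0.32 ± 0.09 and Gatad2a at 0.26 ± 0.06. Of the other Egr family genes, Egr4 and Wt1 were not among the listed genes and so were not analysed here.

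**Figure D5:**
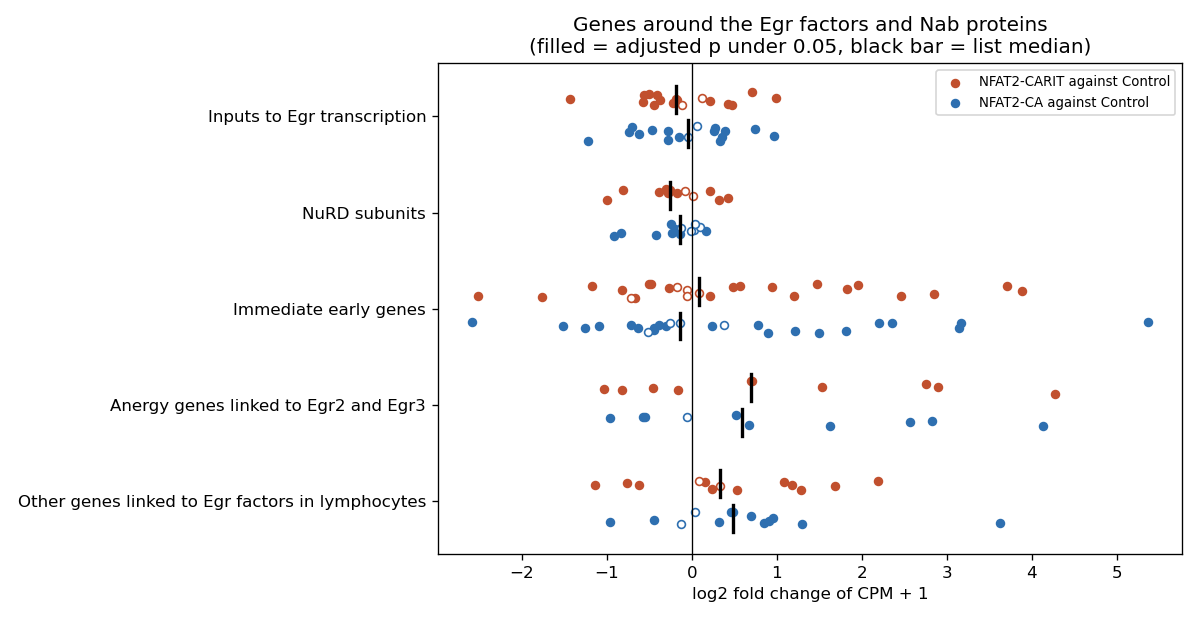
Log2 fold change of CPM + 1 (horizontal axis) of the tested genes in 5 lists (vertical axis), for NFAT2_CARIT and NFAT2_CA against the same Control libraries; filled points have an adjusted p under 0.05 and black bars are list medians. The medians of the anergy list are 0.70 and 0.59, those of the NuRD list -0.26 and -0.14, and the immediate early genes spread furthest.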

How the data were processed

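RNA of the 9 libraries was purified on columns and read by paired-end sequencing, according to the labels' protocols. The submitters' processing notes name mm10, Partek 10 and DESeq2. No aligner, counter or annotation is named in the sources used here. The deposited expression values are in CPM: the 16500 genes have the same sum in each library, and the authors added 0.0001, which was subtracted. The authors' deposited table gives p-values, step-up FDR values and log2 ratios of group means, per the file headers.

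Depth was estimated from the spacing of values up to 1 CPM, of which 81.3% to 84.4% were whole reads within 0.1 read, so read counts were not rebuilt for all genes, and 3 reads equal 0.079 to 0.150 CPM. limma 3.58.1 in R 4.3.3 was fitted on log2(CPM + 1) over all 9 libraries with group means, trend and robust settings, and was tested on simulated data. Genes needed 1 CPM in at least 3 libraries, since a limit of 10 CPM would drop Egr2 and Egr3. Other tools were matplotlib 3.10.9, SciPy 1.17.1, pandas 2.3.3 and NumPy 2.4.6 under Python 3.11.15. Of the listed genes, 97.1% share start and strand with GENCODE M21 on GRCm38, whose exons gave lengths and overlaps. Named were the 5 members, Nfatc1, up to 4 called genes of the largest change per list and comparison, and 3 genes of similar pattern per member. Jun, Srf, Mrtfa, Crtam, Dgka, Hdac1, Cd4, Nemp1, Stat6 and Gm16229 were also chosen after their values were seen where that rule does not name them. Members and lists were chosen with earlier results of these data known. Alternatives were pseudocounts of 0.25 and 5 CPM, no filter, a filter of 10 CPM, scaling by TMM without weights (trimming 30% of ratios and 5% of levels) or by quantiles, a fit on 6 libraries, a block for the replicate number, and leaving out each library in turn.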

Additional observations from a re-analysis of the deposited data

How the results depend on the processing

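The calls of Nab1 and the direction of every called member held under every alternative in which the gene was tested. Adding the replicate number as a block moved Egr1 with NFAT2_CARIT against Control to an adjusted p of 0.0044 (limma, log2 fold change -0.67) and changed no other member's call. The numbers do not pair the libraries: deviations of same-numbered libraries correlated at -0.07 to 0.26, and a library did so best with its own number in 4 of 18 cases. With the block, called genes numbered 9174, 8559 and 3544 for NFAT2_CARIT against Control, NFAT2_CA against Control and NFAT2_CARIT against NFAT2_CA. Leaving out each library gave -0.92 to -0.40 for Egr1 with NFAT2_CARIT against Control. It gave 0.14 to 0.23 for Nab2 with NFAT2_CARIT and 0.12 to 0.19 for Nab2 with NFAT2_CA against Control, and -0.48 to -0.36 for Egr3 with NFAT2_CA against Control. Between the vectors it gave -0.16 to 0.014 for Egr2 and -0.012 to 0.068 for Nab2, which reverses both, and quantile normalization gave 0.018 for Egr2. At 1 CPM Egr3 could not be tested without any 1 of the Control libraries, nor Egr2 without Control replicate 1 or 2 or NFAT2_CA replicate 3, and neither at 10 CPM. With every gene tested, a setting chosen after seeing the data, leaving out each library kept Egr3 called with NFAT2_CARIT in 9 of 9 fits (-0.87 to -0.72) and with NFAT2_CA in 8 of 9 (-0.48 to -0.36, with -0.38 and an adjusted p of 0.066 by limma without Control replicate 1). Between the vectors Egr3 then ranged from -0.46 to -0.29, with an adjusted p of 0.037 by limma without NFAT2_CA replicate 3, and Egr2 from -0.16 to 0.041, with 0.014 without NFAT2_CARIT replicate 1. The causes were not tested. Depth limits Egr2 and Egr3, with 6 to 39 reads per library.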
